A study of Mus musculus with 12 samples.

Results

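Granulocyte-monocyte progenitors (GMP) that carry a human CD4 (hCD4) reporter on their surface were compared with hCD4+ pro-B cells from the same reporter mice, over every gene that the arrays could measure. The members are the arrays whose titles name GMP hCD4+ (2 arrays) or proB hCD4+ (2 arrays), which makes 4 of the 12 arrays of the series. The comparison shows how far the expression programme of reporter-positive pro-B cells lay from that of committed myeloid progenitors. All cells came from bone marrow of female C57BL/6 mice, 16 weeks old, with a Cebpa-Enh/prom-hCD4 transgene, in which enhancer and promoter sequence of Cebpa drives human CD4. Every group carries that transgene, and no animal without it was measured. The groups used here are hCD4+ GMP, hCD4+ pro-B and, as a point of comparison, hCD4- pro-B (2 arrays). The sort gates other than hCD4 are not given in the labels. Which mouse gave which replicate is not labelled, so the p-values rest on a spread between arrays that may be only technical.

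GMP are marrow progenitors that give rise to neutrophils and monocytes. The transcription factor C/EBPα, encoded by Cebpa, is required to form them, and with PU.1 it activates granule protease and colony-stimulating factor receptor genes. Pro-B cells rearrange their immunoglobulin heavy chain genes, depend on interleukin 7, and are set up by the factors E2A, EBF1 and PAX5, which activate B lineage genes, while PAX5 also represses myeloid genes.

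Each level is the log2 processed intensity of a probe minus the array's own 75th percentile, so a level of 0 is the brightness of that percentile and says nothing of RNA per cell. Differences are GMP minus hCD4+ pro-B on the log2 scale, with a standard error (SE) from a limma model of all 12 arrays, and p-values are adjusted over 18556 genes. Rose and fell describe GMP relative to hCD4+ pro-B arrays and are used where the adjusted p was under 0.05. The share of probes well above background was 50.6% to 51.8% on GMP arrays and 55.5% to 56.7% on hCD4+ pro-B arrays. The GMP arrays lay on 1 slide, the hCD4+ pro-B arrays on another and the hCD4- pro-B arrays on yet another, each scanned in its own run. In every comparison between these groups, also that of the pro-B groups, the effects of slide and of cell group cannot be told apart. The net signal of negative control spots was 21.02 and 20.79 on the GMP arrays and 21.14 and 20.33 on the hCD4- pro-B arrays. It was 34.3 and 31.3 on the hCD4+ pro-B arrays, and its part in the differences of dim genes was not tested. Having 2 arrays a group limits the precision, with a median SE of 0.195 for a difference.

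A large share of the measured genes differed. Of 18556 genes, 8354 passed the test (45%). Of these, 3818 were higher in GMP (20.6% of all tested) and 4536 were lower (24.4%). The arrays of both groups did not overlap for 13792 genes (74.3%), so a lack of overlap, where given below, was the usual outcome. The median difference over all genes was -0.08, and scaling each array by its median in place of the 75th percentile moved it to 0.40. With that scaling 75.5% of the called genes were higher in GMP, against 45.7% in the values reported here, so the split between rises and falls depends on the scaling. It raised every named gene's difference by 0.48, so a difference between -0.48 and 0 turned positive under it. In the values reported here, 609 called genes were higher in GMP by over 2 on the log2 scale and 1089 lower by over 2. Past a size of 5 there were 12 rises and 166 falls. No GMP array was above background in 719 of the 1089 falls and in 134 of the 166. No hCD4+ pro-B array was above background in 187 of the 609 rises and in 6 of the 12. Most falls of these sizes were thus measured against GMP signal that was not above background.

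Presence above background was also uneven. For 344 genes at least 1 GMP array and no hCD4+ pro-B array was above background, and for 1703 genes the reverse was true, while 15823 were above background in both groups (on 1 array or more of each). For such genes a lower bound of the fold replaces the fitted change: the dimmer group is set to the lowest signal that its arrays measured well above background. Among called genes, the bound was at least 4-fold for 88 genes higher in GMP and for 306 genes higher in hCD4+ pro-B. Of the 1703 genes, 970 were above background on both hCD4- pro-B arrays.

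**Figure D1:**
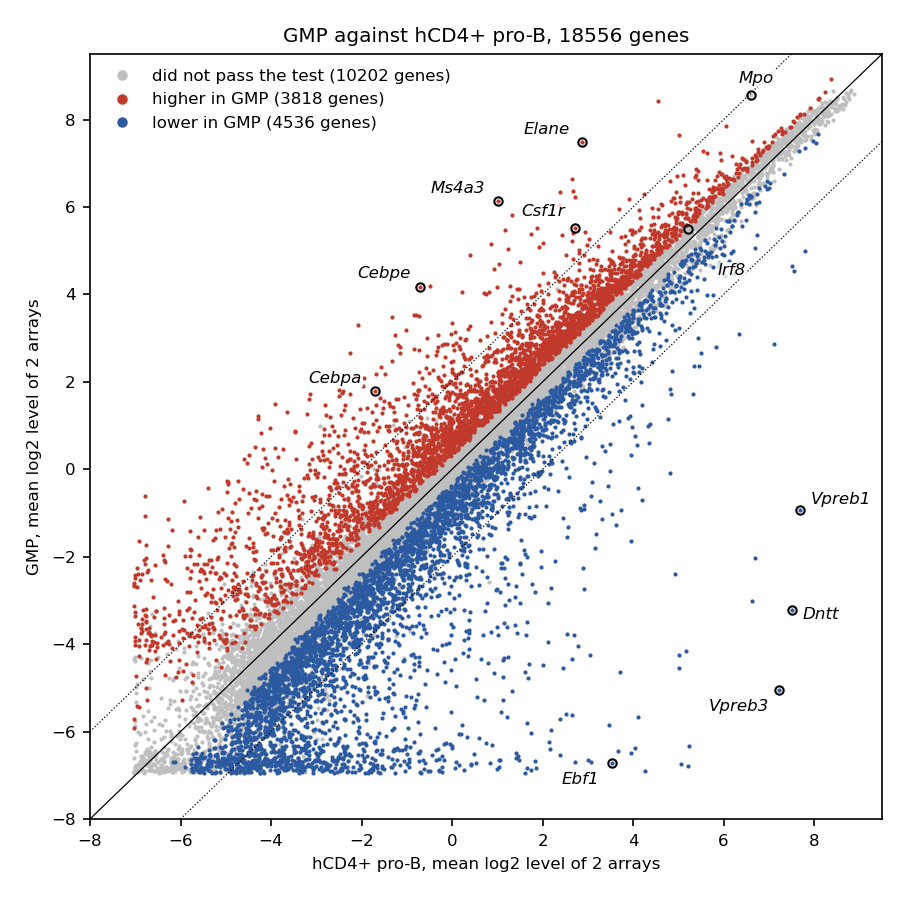
Mean log2 level of each of the 18556 genes in GMP (vertical axis) against hCD4+ pro-B arrays (horizontal axis), 2 arrays each, where 0 is the 75th percentile of an array. Red points are the 3818 genes higher in GMP, blue points the 4536 lower in GMP and grey points the 10202 that did not pass the test; dotted lines mark a difference of 2. The labelled granule genes, Cebpa and Cebpe lie above the diagonal and Dntt, Vpreb1 and Vpreb3 far below it, with a band of genes near the floor of the GMP axis.

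Over all kept genes, mean levels in GMP and hCD4+ pro-B arrays had a Pearson correlation of 0.929 across genes, which are not independent replicates, and a median absolute difference of 0.516. Against hCD4- pro-B arrays the GMP values were 0.9 and 0.506, with 8384 genes called (45.2%). The GMP arrays lay farther from hCD4+ pre-pro-B (median absolute difference 0.639), hCD4- pre-pro-B (0.865) and pre-B arrays (0.843). Between hCD4+ pro-B and hCD4- pro-B the median absolute difference was 0.331 and 3802 genes were called (20.5%). All of these pairs share arrays, so they are given side by side with no test between them. The median absolute difference between replicates was 0.214 in GMP, 0.175 in hCD4+ pro-B, 0.138 in hCD4- pro-B and 0.312 in hCD4- pre-pro-B. By the median over all genes, hCD4+ pro-B and hCD4- pro-B arrays were about equally far from GMP. By the correlation and by large changes, hCD4+ pro-B lay nearer. Called genes that differed from GMP by over 2 numbered 1698 for hCD4+ pro-B and 2108 for hCD4- pro-B. The gene groups below show where the pro-B groups differed.

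The labels were checked first against genes that define each cell type. In GMP arrays Ebf1, Pax5, Rag1, Rag2, Il7r and Vpreb3 were not above background on either array. Other pro-B genes, among them Dntt, Blnk, Vpreb1 and Cd79b, were above background in GMP, at levels given below that were lower than in hCD4+ pro-B arrays. Granule protease and myeloid receptor genes that define GMP were bright there, as given below. The hCD4+ pro-B arrays held B lineage genes, but not all at the level of hCD4- pro-B arrays. Of 32 B lineage factor genes 13 were called lower and 1 higher than in hCD4- pro-B arrays, where 8.86% of all genes were lower. The hCD4+ pro-B arrays also held granule protease genes well above background, which hCD4- pro-B arrays did in part or not at all. In bulk samples a few cells with much of a transcript and many cells with little of it cannot be told apart.

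Cebpa, whose regulatory sequence drives the reporter, lay at 1.97 and 1.59 in GMP arrays, against -1.44 and -1.94 in hCD4+ pro-B arrays. Its probe lies at chr7:35906517-35906576 (mm9). The groups did not overlap, and the difference was 3.47 (SE 0.49, adjusted p = 0.000728). The 2 hCD4- pro-B arrays were at -5.38 and -6.83, neither above background, and hCD4+ pro-B was higher than hCD4- pro-B by 4.41 (SE 0.49, adjusted p = 0.000964). That fitted value rests on hCD4- signal that was not above background, so its size is uncertain. The pro-B groups were sorted on a reporter driven by Cebpa sequence, so their difference in Cebpa is not independent of the sort. On the log2 scale the hCD4+ pro-B level of Cebpa thus lay between the other groups.

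Of the remaining C/EBP family genes, 3 rose in GMP as well. Cebpe, needed for late neutrophil maturation, lay at 4.17 and 4.19 in GMP arrays, against -0.62 and -0.79 in hCD4+ pro-B arrays, a difference of 4.88 (SE 0.53, adjusted p = 0.000165). Cebpb, which drives emergency granulopoiesis, was at 3.29 and 3.41 in GMP and at -0.03 and 0.04 in hCD4+ pro-B, a difference of 3.35 (SE 0.23, adjusted p = 1.4e-05). Cebpd differed by 3.85 (SE 0.46, adjusted p = 0.000297). None of these genes' arrays overlapped between the groups, as held for 74.3% of all genes. All 3 were also higher in hCD4+ than in hCD4- pro-B arrays, by 3.17 for Cebpe, 1.81 for Cebpb and 2.41 for Cebpd. Cebpg, which encodes a C/EBP protein without an activation domain, was the exception, with a difference of -0.50 (adjusted p = 0.0887).

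Of 26 listed myeloid transcription factor genes 25 were kept, and 11 rose, 4 fell and 10 did not pass the test in GMP, with a median difference of 0.75 against -0.08 over all genes. Genes were kept where both arrays of any 1 group were above background, so a gene can be kept through the group where it is high, and list counts are descriptions. The counts of each list stand beside 20.6% of all genes higher and 24.4% lower in GMP. Sfpi1, the gene of PU.1 (now Spi1), was at -1.11 and -1.48 in GMP arrays, against -2.47 and -3.08 in hCD4+ pro-B arrays, and rose by 1.48 (SE 0.29, adjusted p = 0.00374). Gfi1, a repressor needed for granulocyte formation, rose by 1.51 (adjusted p = 0.000479), although it was lower in hCD4+ than in hCD4- pro-B arrays, by 0.84 (SE 0.20, adjusted p = 0.0214). Tcfec (now Tfec), a basic helix-loop-helix factor of macrophages, rose by 5.41 (SE 0.48, adjusted p = 5.05e-05), Mitf of the same family by 3.31 and Nfe2, a factor of platelet formation, by 2.91. The falls were Maf (at least 7.24-fold lower in GMP), Tcfeb (-1.41, now Tfeb), Irf5 (-0.66) and Hhex (-0.40, within the range that turned positive under array median scaling).

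Irf8, which directs monocyte and dendritic cell formation and is also used in B cells, did not differ by the test. Its levels were 5.49 and 5.48 in GMP arrays, against 5.35 and 5.07 in hCD4+ pro-B arrays, a difference of 0.28 with a 95% interval from -0.01 to 0.57 (adjusted p = 0.104). In hCD4- pro-B arrays it lay lower, at 3.89 and 3.76, and hCD4+ pro-B exceeded that by 1.38 (SE 0.12, adjusted p = 0.0004). Runx1 (0.59) and Myb (0.75), factors of blood progenitors, rose in GMP, and Klf4, Jun, Junb and Egr1 did not pass the test.

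**Figure D2:**
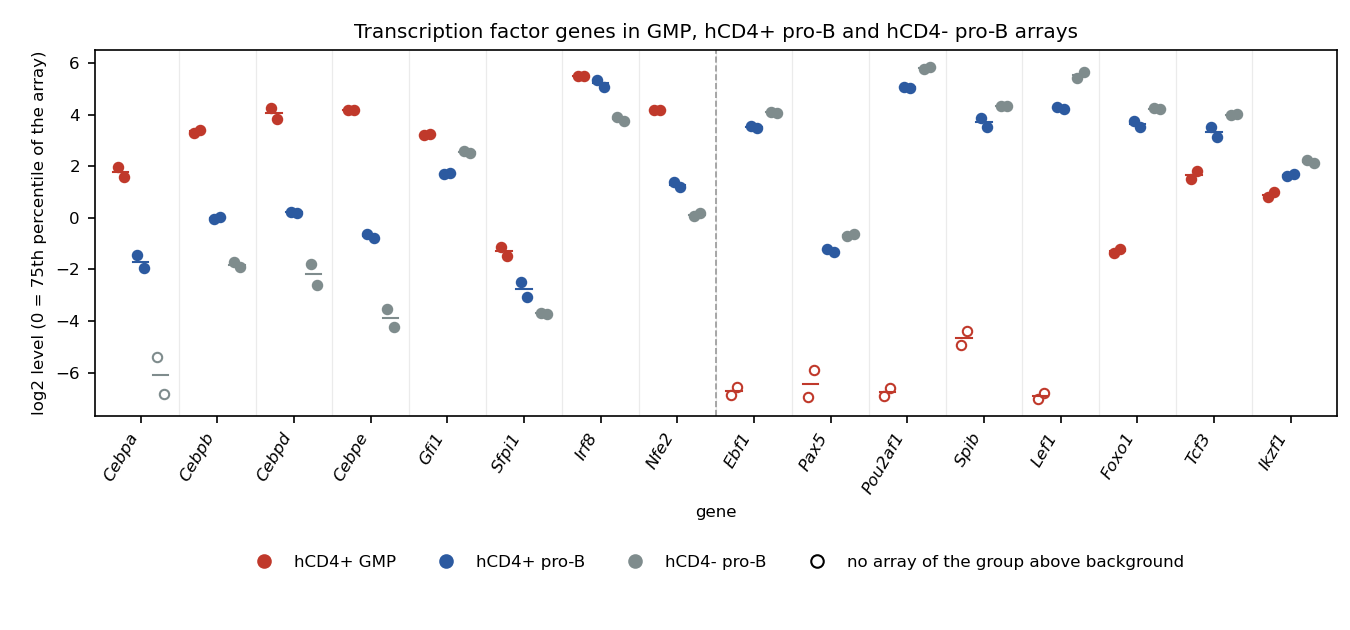
Log2 levels (0 is the 75th percentile of the array) of transcription factor genes in hCD4+ GMP, hCD4+ pro-B and hCD4- pro-B arrays; points are single arrays, bars the mean of 2 arrays and open points groups with no array above background. Cebpa lies at 1.97 and 1.59 in GMP, at -1.44 and -1.94 in hCD4+ pro-B and not above background in hCD4- pro-B, Irf8 is close in GMP and hCD4+ pro-B, and Ebf1 and Pax5 are not above background in GMP.

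Receptors for the cytokines that act on myeloid progenitors differed in both directions. Of 24 listed genes 23 were kept, and 11 rose, 6 fell and 6 did not pass the test. Csf1r, which binds macrophage colony-stimulating factor, lay at 5.44 and 5.58 in GMP arrays, against 2.88 and 2.57 in hCD4+ pro-B arrays, a difference of 2.79 (SE 0.33, adjusted p = 0.000294). In hCD4- pro-B arrays Csf1r was at 0.32 and 0.25, lower than in hCD4+ pro-B by 2.44 (adjusted p = 0.00228). Other Csf1r probes gave 2.54 and -0.15, so the probes of this gene disagreed.

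Il6ra, a receptor chain for interleukin 6, was at 4.12 and 4.12 in GMP arrays and at 1.53 and 1.43 in hCD4+ pro-B arrays, and rose by 2.64 (SE 0.14, adjusted p = 2.54e-06). Tnfrsf1a, a receptor for tumour necrosis factor, rose by 2.58, and Ifngr1, which binds interferon gamma, by 1.92. The chains shared by or specific to granulocyte-macrophage colony-stimulating factor and interleukin 3 rose by 1.57 (Csf2rb), 1.78 (Csf2ra) and 1.91 (Il3ra). Kit, the stem cell factor receptor of early progenitors, was at 2.52 and 2.70 in GMP, against 0.90 and 0.88 in hCD4+ pro-B, a difference of 1.72 (SE 0.18, adjusted p = 0.000124). Each of these receptors was separated between the groups with no overlap of arrays, as were 74.3% of all genes.

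Cd34, a surface marker used to gate GMP, was at 6.25 and 6.20 in GMP arrays, against 2.77 and 2.67 in hCD4+ pro-B arrays. Its difference of 3.51 (SE 0.97, adjusted p = 0.0189) lost its call when any 1 of the 4 arrays was left out, with values of 3.45 to 3.56. Csf3r, the receptor for granulocyte colony-stimulating factor, gave -0.40 (adjusted p = 0.127), and its probe lay at similar levels in the other groups too, at 6.62 and 6.64 in hCD4- pro-B arrays. Receptors lower in GMP were Flt3, a lymphoid and dendritic progenitor receptor (0.73 and 0.55, against 2.68 and 2.55 in hCD4+ pro-B; -1.97, SE 0.33, adjusted p = 0.00184), Il18r1 (at least 4.25-fold lower), Il17ra (-1.96), Tgfbr2 (-1.84), Il10ra (-1.61) and Epor (at least 2.17-fold lower).

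Of the 43 gene lists examined, neutrophil primary granule genes had the highest share of members that rose in GMP. These genes encode the proteases and enzymes that promyelocytes pack into their first granules. Of 20 listed genes 19 were kept, 18 of them rose in GMP and none fell (0 also at an unadjusted p under 0.05), with a median difference of 2.93. The mean level of the kept members was 4.91 and 4.97 in GMP arrays, against 2.02 and 1.92 in hCD4+ pro-B arrays and -0.53 and -0.19 in hCD4- pro-B arrays. Between the pro-B groups 13 members were higher and 2 lower in hCD4+ arrays, where 11.6% of all genes were higher and 8.86% lower.

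Elane, the neutrophil elastase gene, lay at 7.33 and 7.63 in GMP arrays, against 3.17 and 2.58 in hCD4+ pro-B arrays. Its difference was 4.60 (SE 0.26, adjusted p = 4.26e-06), and hCD4- pro-B arrays were at -0.17 and -0.27. Prtn3, the proteinase 3 gene beside it on the chromosome, lay at 5.73 and 5.23 in GMP and at 1.46 and 0.88 in hCD4+ pro-B, a difference of 4.31 (SE 0.54, adjusted p = 0.000394). For both proteases the GMP arrays lay clear of the hCD4+ pro-B arrays, as they did for 74.3% of all genes. No hCD4- pro-B array was above background for Prtn3. The probes lie at chr10:79350902-79350961 for Elane and chr10:79343869-79344685 for Prtn3 (mm9).

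Ctsg, the cathepsin G gene, was at 8.30 and 8.55 in GMP arrays, against 4.64 and 4.46 in hCD4+ pro-B arrays, a difference of 3.87 (SE 0.83, adjusted p = 0.00599). Ms4a3, a membrane protein gene of granulocyte-monocyte progenitors, was at 6.09 and 6.17 in GMP and at 0.99 and 1.03 in hCD4+ pro-B, and rose by 5.12 (SE 0.57, adjusted p = 0.0002). Hexa (2.19) and Gusb (1.87), which encode lysosomal sugar-cleaving enzymes, rose less.

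Mpo, the myeloperoxidase gene, was the kept member of the granule list without a call. It lay at 8.31 and 8.80 in GMP arrays, against 6.65 and 6.56 in hCD4+ pro-B arrays, so the groups did not overlap, yet the difference of 1.95 had an SE of 1.26 and a 95% interval from -0.95 to 4.85 (adjusted p = 0.242). The hCD4- pro-B arrays of this probe were at -3.39 and -0.53, and their spread enters the shared error. A model of the 4 arrays alone gave the same difference with an adjusted p of 0.0031, and a second Mpo probe gave 3.92. Against hCD4- pro-B, hCD4+ pro-B was higher by 8.56 (SE 1.26, adjusted p = 0.00324).

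**Figure D3:**
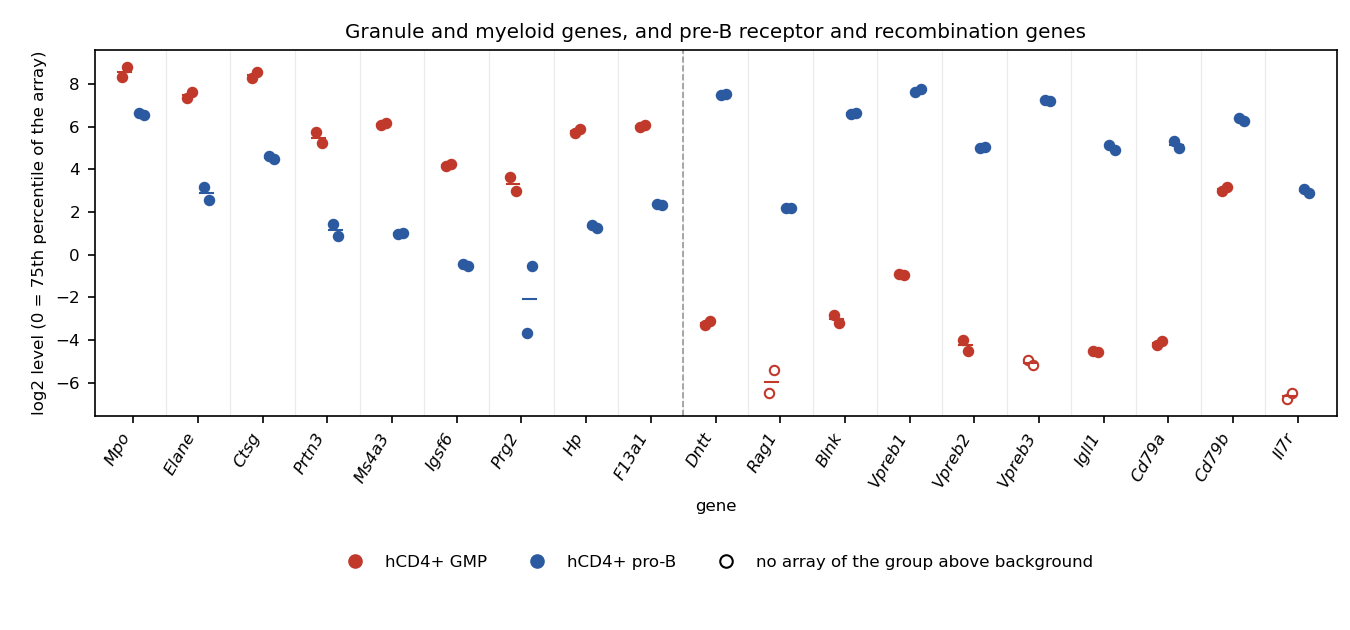
Log2 levels (0 is the 75th percentile of the array) of granule and myeloid genes (left) and of recombination, pre-B receptor and B cell surface genes (right) in hCD4+ GMP and hCD4+ pro-B arrays; points are single arrays, bars the mean of 2 arrays and open points groups with no array above background. All granule genes shown are higher in GMP with no overlap, while Dntt lies at -3.32 and -3.13 in GMP against 7.49 and 7.52 in hCD4+ pro-B arrays.

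The 250 bases before the start of 2 granule protease genes and 2 pre-B receptor genes are shown because these genes lay at opposite ends of the comparison while all 4 held the same short motif. They are RefSeq sequences of build GRCm38.p6, written 5′ to 3′ on the strand of the gene, and capitals mark GAGGAA or its reverse complement, a core of Ets family sites such as those of PU.1. The motif begins 85 bases before the start in Elane (chr10:79886062-79886311, plus strand), 95 in Prtn3 (chr10:79879417-79879666, plus strand), 81 in Vpreb1 (chr16:16869256-16869505, minus strand) and 140 in Cd79a (chr7:24897247-24897496, plus strand).
Elane: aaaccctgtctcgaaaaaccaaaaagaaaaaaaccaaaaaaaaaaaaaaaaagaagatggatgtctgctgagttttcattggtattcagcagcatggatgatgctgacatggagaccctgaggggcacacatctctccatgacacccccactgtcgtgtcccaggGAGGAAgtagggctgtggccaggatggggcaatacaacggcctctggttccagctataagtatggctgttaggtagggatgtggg
Prtn3: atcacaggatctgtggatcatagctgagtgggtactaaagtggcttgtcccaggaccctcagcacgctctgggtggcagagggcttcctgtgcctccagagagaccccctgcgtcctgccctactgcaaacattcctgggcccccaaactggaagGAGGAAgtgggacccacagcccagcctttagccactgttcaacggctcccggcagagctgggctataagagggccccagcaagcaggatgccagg
Vpreb1: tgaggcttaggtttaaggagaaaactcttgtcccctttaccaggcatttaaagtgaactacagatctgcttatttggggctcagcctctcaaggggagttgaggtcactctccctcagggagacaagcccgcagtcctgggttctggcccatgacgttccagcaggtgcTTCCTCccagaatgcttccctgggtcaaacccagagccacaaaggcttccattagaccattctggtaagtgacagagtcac
Cd79a: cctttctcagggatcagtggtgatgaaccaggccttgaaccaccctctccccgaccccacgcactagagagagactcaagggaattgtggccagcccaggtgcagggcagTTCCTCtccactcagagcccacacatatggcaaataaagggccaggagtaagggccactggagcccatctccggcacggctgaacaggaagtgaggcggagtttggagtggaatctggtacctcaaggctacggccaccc
The motifs searched on both strands in this window, each counted alone also where matches overlapped, were GAGGAA (Ets type), TTGCNNAA (C/EBP type) and an EBF-type palindrome of TCCC and GGGA around 2 free bases. Of 32851 promoters of 27025 genes, 23.3% held GAGGAA, 9.6% TTGCNNAA and 0.8% the EBF-type palindrome. Among promoters of kept genes the shares were 22.7%, 8.2% and 0.9%. Among genes higher in GMP by over 2 the shares of their 553 promoters were 28.2%, 10.5% and 0.5%, and among genes lower by over 2 the shares of 767 promoters were 26.1%, 9.0% and 1.7%. A match is a description of letters, not a site, and none of the 4 promoters held either of the other motifs in this window. The 4 were picked from a larger set for holding GAGGAA. Of the others examined, the promoters of Ms4a3, Igll1, Vpreb3, Blnk and Dntt held none of the motifs searched. GAGGAA was also held by the promoters of Ctsg, Mpo, Vpreb2 and Igsf6, by a promoter of Ebf1 and by a promoter of Lef1. The promoter of Pou2af1, a B lineage gene, held TTGCNNAA.

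Genes of later neutrophil stages were mixed. Of 23 listed secondary granule and late genes 19 were kept, and 9 rose and 3 fell in GMP. Hp, the haptoglobin gene, lay at 5.71 and 5.90 in GMP arrays, against 1.40 and 1.23 in hCD4+ pro-B arrays, a difference of 4.49 (SE 0.38, adjusted p = 4.18e-05). Pglyrp1, a peptidoglycan-binding granule protein gene, rose by 4.33, Ltb4r1, the leukotriene B4 receptor gene, by 3.59 and Lcn2, the lipocalin 2 gene, by 3.09. Mmp8, a collagenase of secondary granules, was at least 6.61-fold higher in GMP. Ltf, which encodes lactoferrin and defines secondary granules, was not above background in GMP, and Ngp was above background in neither group.

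S100a8 and S100a9, the calprotectin genes of mature neutrophils, varied widely between arrays of a group. S100a8 lay at 1.49 and 0.49 in GMP arrays, against -2.22 and -3.63 in hCD4+ pro-B arrays (3.91, SE 1.58, adjusted p = 0.0764), and S100a9 at -0.43 and -2.71 in GMP, against -1.03 and -4.87 in hCD4+ pro-B. The groups overlapped for S100a9. In hCD4- pro-B arrays these late genes were brighter, with S100a9 at 4.01 and 3.15 and Ltf at -0.29 and -1.30, so neutrophil transcripts were not lower throughout in hCD4- pro-B arrays.

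Monocyte genes followed the primary granule genes, with fewer members called. Of 30 listed genes 25 were kept, and 15 rose and 2 fell in GMP, with a median difference of 1.70. F13a1, the coagulation factor XIII chain of monocytes, was at 6.01 and 6.08 in GMP arrays, against 2.38 and 2.33 in hCD4+ pro-B arrays, and rose by 3.69 (SE 0.13, adjusted p = 3.35e-07). Ccr2, the receptor with which monocytes leave the marrow, was at 1.5 and 1.80 in GMP and at -1.05 and -1.08 in hCD4+ pro-B, and rose by 2.72 (SE 0.23, adjusted p = 3.91e-05). Cd14 rose by 3.96, Ccl9 by 3.66, Ms4a6c by 3.04, Ly6c1 by 2.64 and Cx3cr1 by 2.14.

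Some monocyte genes lay at similar levels in GMP and hCD4+ pro-B arrays. S100a4 was at 1.73 and 1.93 in GMP, against 1.72 and 1.87 in hCD4+ pro-B, a difference of 0.04 with a 95% interval from -0.54 to 0.61. Lgals3, the galectin 3 gene, was at 2.21 and 2.25 in GMP, against 1.80 and 1.77 in hCD4+ pro-B (0.45, interval -0.06 to 0.96), and Fn1, the fibronectin gene, gave 0.01 (interval -1.24 to 1.27). In hCD4- pro-B arrays S100a4 was at -1.06 and -1.52 and Lgals3 at -2.50 and -2.82. The hCD4+ pro-B arrays exceeded these by 3.09 for S100a4 (SE 0.25, adjusted p = 0.000251) and by 4.44 for Lgals3 (SE 0.22, adjusted p = 3.79e-05).

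Of the 25 kept monocyte genes, 16 were higher and 0 lower in hCD4+ than in hCD4- pro-B arrays by limma's adjusted p, where 11.6% of all genes were higher and 8.86% lower. The mean level of the list was 0.94 and 0.83 in GMP arrays, -0.56 and -0.73 in hCD4+ pro-B arrays and -2.85 and -2.85 in hCD4- pro-B arrays.

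Genes of basophils, mast cells and eosinophils rose too: of 21 listed genes 16 were kept, 11 rose and none fell (0 also at an unadjusted p under 0.05). Hdc, which makes histamine, lay at 3.56 and 3.50 in GMP arrays, against -0.80 and -0.78 in hCD4+ pro-B arrays, a difference of 4.32 (SE 0.46, adjusted p = 0.000153). Cpa3, the mast cell carboxypeptidase, rose by 3.45, Epx, the eosinophil peroxidase, by 4.63 and Gata2, a factor of these lineages, by 2.48. Ear1, an eosinophil ribonuclease gene with close paralogs, was at least 15.9-fold higher in GMP. Ear2, of the same family, rose by 5.51 (SE 0.98), and probes of the family may share signal. Prg2, the eosinophil major basic protein gene, was at 3.63 and 2.98 in GMP and at -3.66 and -0.52 in hCD4+ pro-B. Its difference of 5.39 (SE 1.25, adjusted p = 0.00854) was 3.82 (adjusted p = 0.0596) without hCD4+ pro-B replicate 1.

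The phagocyte oxidase makes the oxidative burst, and 6 of its 8 genes rose. Ncf1 was at 2.47 and 2.57 in GMP arrays, against 0.43 and 0.12 in hCD4+ pro-B arrays, and rose by 2.24 (SE 0.18, adjusted p = 2.89e-05), with Hvcn1 at 1.22, Ncf4 at 1.2 and Cyba at 0.82. Rac1 rose by 0.32, a call lost when any 1 of the 4 arrays was left out (0.26 to 0.37). Rac2 fell by 0.33, within the range that turned positive under array median scaling, and Cybb, the membrane subunit, gave 0.25 (adjusted p = 0.726).

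Among 15 kept Fc receptor and ITAM adaptor genes 7 rose and 5 fell. Fcgr3, a marker used to gate GMP, was at 1.63 and 0.77 in GMP, against -2.58 and -2.82 in hCD4+ pro-B, and rose by 3.90 (SE 0.30, adjusted p = 2.46e-05). The adaptor genes Fcer1g (2.15), Hcst (1.90) and Tyrobp (1.38) rose as well, and Fcgr2b rose by 2.49. The falls were the B cell genes Fcrla (at least 65.3-fold lower in GMP) and Fcrl1 (at least 2.16-fold), the inhibitory receptor gene Lilrb3 (-2.30), Sykb (-1.51, the kinase gene Syk, which acts below both Fc and pre-B receptors) and Fcrl5 (-0.46). The sign of Fcrl5 turned under array median scaling, and its call was lost when any 1 of the 4 arrays was left out (-0.55 to -0.37), with the 4 arrays alone and with no filter. The list's median of 0.28 turned to -0.25 without GMP replicate 2.

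Toll-like receptor pathway genes rose in 10 of 17 kept members and fell in 3. Tlr2, which senses bacterial lipoproteins, rose by 1.79, Ly86 by 1.70 and Irak3 by 1.45, and Tlr1 was at least 5.87-fold higher in GMP. The nucleic acid sensors Tlr7 (-1.42) and Tlr9 (-0.75) fell, as did Cd180 (-1.58), a surface regulator of B cell responses. Tlr4 did not pass the test (0.20).

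Genes of the secretory pathway, which folds and exports granule and surface proteins, differed in 1 direction: 24 of 32 kept members rose, 8 did not pass the test and none fell (0 also at an unadjusted p under 0.05), with a median difference of 1.2. Calr, the calreticulin gene, was at 5.77 and 6.09 in GMP arrays, against 4.21 and 4.03 in hCD4+ pro-B arrays, and rose by 1.81 (SE 0.14, adjusted p = 2.91e-05). Sdf2l1 rose by 2.09, Pdia6 by 1.63, Sec61a1 by 1.54 and Hspa5 by 1.35, and Xbp1, a factor that expands this pathway, by 1.76. The pathway did not separate the pro-B groups, with 0 of 32 members higher and 1 lower in hCD4+ than in hCD4- pro-B arrays by limma's adjusted p.

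Lysosomal genes rose in 18 of 30 kept members and fell in 4. Cd63, a membrane protein of granules and lysosomes, was at 5.07 and 4.74 in GMP, against 0.34 and 0.44 in hCD4+ pro-B, and rose by 4.51 (SE 0.17, adjusted p = 5.85e-07). Gaa (1.96), Ctsz (1.59), Lamp1 (1.44) and Ctsd (1.24) rose, while Lgmn, a protease of antigen processing, fell by 3.67. Of 24 glycolysis and pentose phosphate genes 16 rose and 2 fell. Hk3, the hexokinase of myeloid cells, rose by 4.39 (SE 0.32, adjusted p = 1.92e-05), Hk2 by 2.24, and G6pdx and Pgd, which supply NADPH, by 2.15 and 1.88. Gapdh did not differ by the test (0.06, interval -0.28 to 0.40), though its other probes gave -0.12 to 0.49. Slc2a3 (-1.2) and Aldoc (-1.26) fell.

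Among genes above background in both groups, B lineage genes reached larger differences than the myeloid genes above, up to -10.73 for Dntt. Of 33 listed B lineage transcription factor genes 32 were kept, and 23 fell and 4 rose in GMP, with a median difference of -1.83. Ebf1, which commits cells to the B lineage, lay at -6.86 and -6.57 in GMP arrays, not above background, against 3.57 and 3.48 in hCD4+ pro-B arrays, at least 282-fold lower in GMP (adjusted p = 9.05e-07). Pax5, which locks that commitment, was at least 10.2-fold lower in GMP (adjusted p = 5.67e-06), and a second probe gave -3.08. The remaining bounds were 816-fold for Pou2af1, a co-activator at immunoglobulin promoters, 473-fold for Lef1, 310-fold for Spib and 67.7-fold for Irf4.

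Several B lineage factors were above background in both groups. Foxo1, which activates the recombinase genes, was at -1.36 and -1.20 in GMP, against 3.75 and 3.51 in hCD4+ pro-B, and fell by 4.91 (SE 0.13, adjusted p = 1.2e-07). Ets1 fell by 5.17, Bach2 by 5.14 and Id3 by 4.94. Tcf3, the E2A gene, fell by 1.66 (SE 0.19, adjusted p = 0.000231), with GMP arrays at 1.52 and 1.84 and hCD4+ pro-B arrays at 3.52 and 3.15. Ikzf1, the Ikaros gene, fell by 0.76, a call lost under array median scaling (-0.28, adjusted p = 0.0948). The rises were Ikzf2 (2.23), Zeb2 (1.30), Myb (0.75) and Zbtb7a (0.45).

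The pre-B receptor pairs the immunoglobulin heavy chain with a surrogate light chain and signals through CD79 proteins. Of 21 kept genes of this receptor and its signalling path 17 fell and 1 rose in GMP, and the median difference of -3.83 was the lowest of the lists. It was -2.85 with dim levels set to the array's floor and -1.51 where only genes above background in both groups were kept, where it was no longer the lowest. Igll1, a surrogate light chain gene, lay at -4.54 and -4.56 in GMP arrays, against 5.12 and 4.93 in hCD4+ pro-B arrays, a difference of -9.57 (SE 0.29, adjusted p = 1.83e-07). Vpreb1, its partner, lay at -0.90 and -0.97 in GMP and at 7.63 and 7.76 in hCD4+ pro-B (-8.63, SE 0.21, adjusted p = 7.8e-08). The arrays were far apart for both, at chr16:16861104-16861163 for Igll1 and chr16:16868559-16868618 for Vpreb1 (mm9).

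Vpreb3, a chaperone-like relative of these genes, was at least 3685-fold lower in GMP, the largest bound among named genes. Blnk, the adaptor below the receptor, lay at -2.81 and -3.20 in GMP arrays, against 6.58 and 6.67 in hCD4+ pro-B arrays (-9.63, SE 0.15, adjusted p = 1.01e-08). Cd79a fell by 9.31 (a second probe gave -7.49), while Cd79b, with GMP arrays at 3.0 and 3.17 and hCD4+ pro-B arrays at 6.41 and 6.29, fell by 3.26 (SE 0.12). Signalling genes that myeloid cells also use differed less: Plcg2 by -0.82, Pik3cd by -0.89 and Lyn by -0.71, and Btk by -0.36 (adjusted p = 0.133).

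Of 17 V(D)J recombination genes 12 fell and none rose (2 at an unadjusted p under 0.05). Dntt, the terminal transferase that adds bases at the joins, lay at -3.32 and -3.13 in GMP arrays, against 7.49 and 7.52 in hCD4+ pro-B arrays, and its difference of -10.73 (SE 0.14, adjusted p = 1.01e-08) was the largest among named genes above background in both groups. Rag1 and Rag2, the recombinase genes, were at least 112-fold and 56.5-fold lower in GMP. The joining factors fell by less, with Xrcc5 at -3.24, Lig4 at -2.76, Dclre1c at -1.27 and Xrcc6 at -1.04, and Prkdc gave -0.06 (adjusted p = 0.856).

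Of 36 kept pro-B surface and marker genes 25 fell and 6 rose in GMP. Ly6d, a marker of B-biased lymphoid progenitors, was at least 922-fold lower in GMP and Gfra2 at least 906-fold lower. Cd24a fell by 1.76 and Ptprc, which includes the B220 form, by 0.37, a value within the range that turned positive under array median scaling. Cd93, the early B cell antigen that progenitors share, did not pass the test (-0.02, interval -0.37 to 0.32; 0.46 under array median scaling). Spn, the CD43 gene, rose by 0.61, Igf1r by 2.04, Cd9 by 1.75 and Lgals1, a galectin that stromal cells also use, by 1.17.

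Interleukin 7 signals through STAT5 in pro-B cells. Il7r lay at -6.78 and -6.51 in GMP arrays, not above background, against 3.09 and 2.91 in hCD4+ pro-B arrays, at least 196-fold lower in GMP (adjusted p = 1.01e-08). Of 22 kept genes of the pathway 12 fell and 2 rose. The feedback genes Cish (-2.73) and Socs1 (-1.07) fell, Socs2 was at least 19.2-fold lower, and Ccnd3, the D cyclin that pro-B cells need, fell by 3.02 with GMP arrays at 4.41 and 4.65 and hCD4+ pro-B arrays at 7.51 and 7.59. Jak1 fell by 0.50, and Stat5a (0.35) and Stat5b (0.25) did not pass the test. Early lymphoid progenitor genes fell in 16 of 20 kept members, among them Bcl11a (-2.24), Mef2c (-1.17) and Satb1 (-1.14). A second Bcl11a probe gave -0.73.

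B lineage genes also differed between the 2 pro-B groups, in part. By limma's adjusted p, 1 of 21 pre-B receptor genes was higher and 4 lower in hCD4+ than in hCD4- pro-B arrays, and of 17 recombination genes 0 were higher and 4 lower. Ebf1 differed by -0.56 (adjusted p = 0.388) and Pax5 by -0.60 (adjusted p = 0.207) between hCD4+ and hCD4- pro-B arrays. Of 32 B lineage factor genes 13 were lower and 1 higher in hCD4+ pro-B, where 8.86% of all genes were lower. Of 36 pro-B surface and marker genes 16 were lower and 2 higher, of 29 genes of later B cells 12 were lower and 4 higher, and of 4 antibody transcripts 3 were lower and 0 higher.

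Notch and Id genes act in lymphoid choices, and of 12 kept members 8 fell and 3 rose in GMP. Hes1, a Notch target, was at least 9.77-fold lower, Nrarp at least 5.96-fold and Dtx1 at least 5.52-fold, and Hes5 fell by 4.64. Notch1 gave 0.12 (adjusted p = 0.805). Id1 rose by 2.13 and Rbpj, the factor that Notch binds, by 0.90. The list's median of -2.47 was 0.12 where only genes above background in both groups were kept.

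Dendritic cell genes separated the groups in the direction of the B lineage genes. Of 25 kept plasmacytoid dendritic cell genes 16 fell and 2 rose in GMP, and of 13 kept classical dendritic cell genes 8 fell and 2 rose. The mean level of the plasmacytoid list was -0.81 and -0.69 in GMP arrays, 2.06 and 1.93 in hCD4+ pro-B arrays and 0.94 and 0.52 in hCD4- pro-B arrays. That of the classical list was -1.71 and -1.78 in GMP, 0.25 and 0.05 in hCD4+ pro-B and -1.11 and -1.77 in hCD4- pro-B. The part of dendritic cells in any other result was not tested.

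Itgax, the CD11c gene of dendritic cells, lay at -3.45 and -3.58 in GMP arrays, against 1.30 and 0.98 in hCD4+ pro-B arrays, and fell by 4.66 (SE 0.68, adjusted p = 0.000891). In hCD4- pro-B arrays it was at -2.89 and -4.06, below the hCD4+ pro-B level by 4.61 (adjusted p = 0.00335). Upb1, a pyrimidine catabolism gene, fell by 4.18, Cd7 by 6.15 and Cox6a2 by 4.67, and each was also higher in hCD4+ than in hCD4- pro-B arrays, by 3.33, 3.28 and 3.0. Ccr9, a homing receptor of plasmacytoid dendritic cells and early lymphoid cells, was at least 45.2-fold lower in GMP, Klk1 at least 32.9-fold and Lag3 at least 13-fold. A second Ccr9 probe gave -4.54. Several members are B lineage genes as well, such as Spib, Ly6d and Tcf4, so the lists are not independent.

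Not all dendritic cell genes fell. Siglech, a surface receptor of plasmacytoid dendritic cells, was at 6.21 and 6.18 in GMP, against 6.51 and 6.63 in hCD4+ pro-B (-0.38, interval -0.80 to 0.04). Clec10a gave -0.21 (interval -1.82 to 1.41). Plac8 rose by 1.80, Zeb2 by 1.30 and Cst3, the cystatin C gene, by 1.08. In the classical list Clec9a fell by 1.99 and Kmo by 2.27, and Cd209a was at least 8.4-fold lower in GMP. A second Cd209a probe gave only -1.08, so the probes of this gene disagreed in size. Xcr1, Batf3 and Zbtb46, which define classical dendritic cells, were not kept, since no group had them above background on both arrays.

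Class II antigen presentation genes fell in 10 of 13 members and rose in 1. H2-Eb1 lay at -3.29 and -4.78 in GMP arrays, against 2.88 and 2.71 in hCD4+ pro-B arrays, and fell by 6.83 (SE 0.42, adjusted p = 6.97e-06). Cd74, the invariant chain gene, fell by 6.49, H2-Ab1 by 3.1 and H2-Ob by 3.65. H2-Aa was at least 11.8-fold lower in GMP and Ciita, the class II transactivator, at least 3.19-fold. H2-DMb1, which loads peptides, was the exception and rose by 1.07. In the hCD4- pro-B arrays H2-Eb1 was at 1.89 and 1.23, so this gene was brighter in both pro-B groups than in GMP. Against hCD4- pro-B arrays 8 of the 13 members were lower and 2 higher in GMP by limma's adjusted p. Between the pro-B groups 5 members were higher and 2 lower in hCD4+ arrays.

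**Figure D4:**
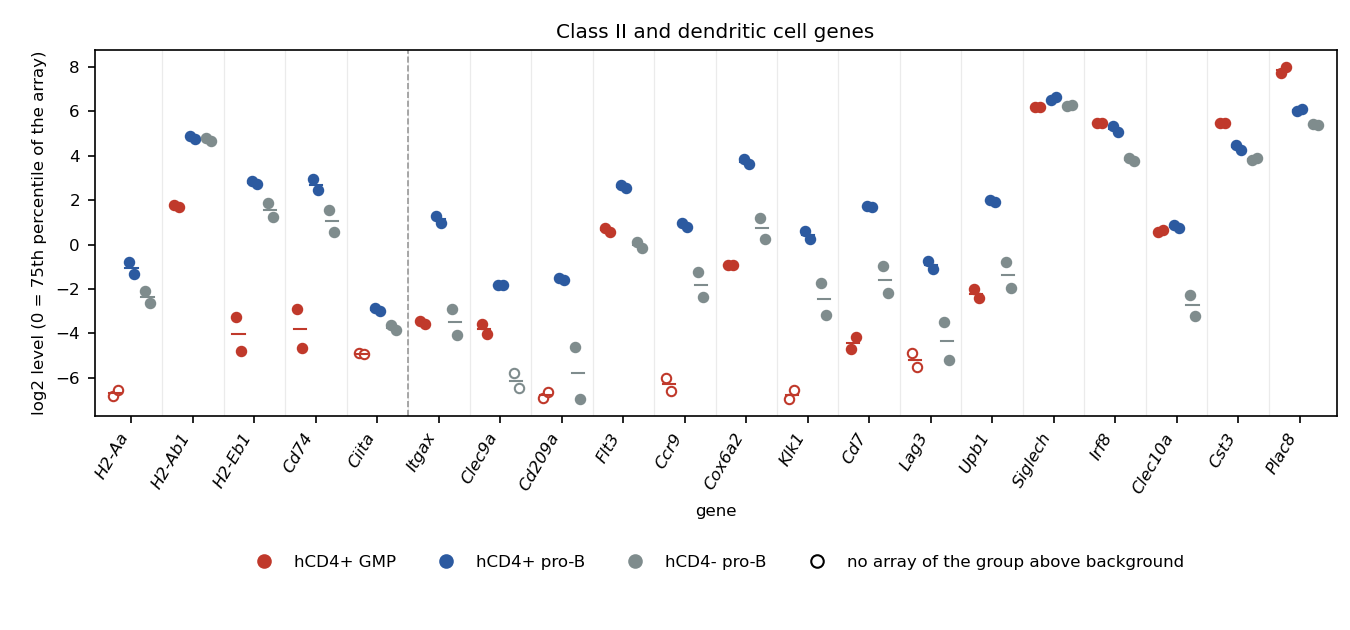
Log2 levels (0 is the 75th percentile of the array) of class II genes (left) and dendritic cell genes (right) in hCD4+ GMP, hCD4+ pro-B and hCD4- pro-B arrays; points are single arrays, bars the mean of 2 arrays and open points groups with no array above background. Itgax lies at -3.45 and -3.58 in GMP, at 1.30 and 0.98 in hCD4+ pro-B and at -2.89 and -4.06 in hCD4- pro-B, while Siglech is close in all 3 groups.

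Interferon response genes were lower in GMP, with 21 of 31 members falling and 4 rising. Ifi27l2a fell by 3.74 with GMP arrays at 0.62 and 0.59 and hCD4+ pro-B arrays at 4.43 and 4.27, Mx2 by 2.16 and Ddx58, an RNA sensor now named Rigi, by 2.08. Irf7, which amplifies the response, was at least 4.05-fold lower. Ifitm1 (2.03), Gbp3 (1.96), Ifih1 (0.96) and Ifitm3 (0.79) rose instead.

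Proliferation genes differed by phase. Of 34 S phase genes 3 rose and 6 fell in GMP, below the shares over all genes, and the median of -0.13 became 0.35 under array median scaling. Of 32 G2/M genes 27 fell and none rose (0 also at an unadjusted p under 0.05), with a median of -1.03 that was -0.55 under that scaling. Mki67 was at 4.90 and 5.10 in GMP arrays, against 6.19 and 6.22 in hCD4+ pro-B arrays, and fell by 1.21 (SE 0.16, adjusted p = 0.000492). Plk1 fell by 1.25, Ccnb1 by 1.2 and Ccna2 by 1.06. Replication genes such as Mcm3 (-0.12), Rfc4 (0.00; 0.48 under array median scaling) and Tyms (-0.08) did not pass the test. Against hCD4- pro-B arrays 30 of the 32 G2/M genes were lower in GMP and none was higher.

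Cell cycle inhibitor genes fell as well. Of 16 kept D cyclin and inhibitor genes 9 fell and none rose (0 also at an unadjusted p under 0.05), among them Cdkn2d (-1.25), Cdkn2c (-1.24), Cdkn1b (-1.08) and Rb1 (-0.74). Cdkn1a, the p21 gene, fell by 1.92, but a second probe gave 0.32. Ccnd1 gave 0.01 (interval -1.16 to 1.19) and Ccnd2 0.07.

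Survival genes of the Bcl2 family were split, with 6 rising and 4 falling of 14 kept. Bcl2 itself was at 1.93 and 2.00 in GMP, against 0.75 and 0.40 in hCD4+ pro-B, and rose by 1.39 (SE 0.27, adjusted p = 0.00336). Bcl2l1, the BCL-XL gene, fell by 2.74, with GMP arrays at 1.41 and 1.52 and hCD4+ pro-B arrays at 4.36 and 4.05. Bok fell by 6.31 and Bmf was at least 11.9-fold lower. Mcl1 (0.08) and Bax (0.03) did not pass the test.

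Chemokine and egress receptor genes differed in both directions. Ccr7, which guides cells to lymph nodes, fell by 5.34 and S1pr1, needed to leave the marrow, by 4.13. Cxcr3 was at least 12.2-fold lower in GMP and Cxcr2, the neutrophil receptor, at least 7.54-fold higher. Cxcr4, which holds progenitors in the marrow, lay at 1.31 and 1.53 in GMP, against 1.44 and 1.53 in hCD4+ pro-B (-0.07, adjusted p = 0.763). Of 16 kept members 5 rose and 7 fell, and the median of -0.64 was 1.34 where only genes above background in both groups were kept.

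Markers of other lineages were examined because a gate could hold them. Erythroid genes fell in 9 of 16 kept members and rose in 1, with Car2 at -2.60 and Gfi1b at -1.73, and Alas2 was not kept. Megakaryocyte genes rose in 7 of 14 and fell in 1. The call of Pf4, the platelet factor 4 gene (3.27), was lost without GMP replicate 1 (3.17), GMP replicate 2 (3.36) or hCD4+ pro-B replicate 2 (2.47). That of Vwf (2.09) was lost without the same arrays (1.97, 2.22 and 1.61), and that of Itga2b (at least 3.55-fold higher in GMP) without GMP replicate 1 or hCD4+ pro-B replicate 1. T cell genes fell in 9 of 16 and rose in 1. Lck fell by 4.97 and Thy1 by 4.57, while Cd3d was above background in neither group, Cd3e gave -0.08, and Cd3g, Gata3 and Bcl11b were not kept. Of natural killer cell genes 8 of 17 were kept, and Klrd1 was at least 12.6-fold lower in GMP.

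Immediate early genes, known to respond to cell handling, differed between the GMP arrays themselves: the mean level of the list was 2.44 and 0.99 in GMP arrays, against 1.41 and 1.24 in hCD4+ pro-B arrays. Of 20 members 3 rose and 1 fell, below the shares over all genes. Egr1 lay at 3.28 and 1.06 in GMP and at 1.12 and 1.03 in hCD4+ pro-B, and did not pass the test. Ier3 rose by 2.15, a call lost without GMP replicate 1 (1.42, adjusted p = 0.126), hCD4+ pro-B replicate 1 (2.31, adjusted p = 0.0632) or hCD4+ pro-B replicate 2 (1.99, adjusted p = 0.0938).

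Stem and multipotent progenitor genes rose in 12 of 24 kept members and fell in 5. Prom1, a surface protein gene of progenitors, rose by 4.19, Lmo2 by 2.49 and Tal1 by 1.81, both factors of early blood formation, while Erg fell by 1.98 and Egfl7 by 1.67. Hoxa genes were near the background of the comparison, with 3 rises and 3 falls among 14 kept members of the cluster and its Meis and Pbx partners. Hoxa9 gave -0.24 (adjusted p = 0.386) and Meis1 rose by 0.43.

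Outside the lists, the largest rises of genes above background in both groups were those of Tctex1d1 (5.44, SE 0.21), Slc22a4, a carrier of ergothioneine (5.03, SE 0.77), Nrg1, a growth factor (4.97, SE 0.33), Scnn1a, a sodium channel subunit (4.96, SE 0.99), Dmkn (4.93, SE 0.21), Celsr3 (4.86, SE 0.22) and Trem3, a myeloid receptor (4.85, SE 0.48). Of the genes with no hCD4+ pro-B array above background, Ttc39c was at least 21.8-fold, Tmem178 at least 21.4-fold, Ncam1 at least 20.8-fold and Fkbp9 at least 17.8-fold higher in GMP. No hCD4- pro-B array was above background for any of these genes.

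The largest falls outside the lists were those of Bfsp2, a filament protein of the eye lens (-8.72, SE 0.13), Trp53i11 (-7.32, SE 0.12), Rsph9 (-7.30, SE 0.30), Epha2, an ephrin receptor (-7.00, SE 0.19), and Colq (-6.99, SE 0.31; a second probe gave -3.60). Bfsp2 lay at -2.14 and -1.92 in GMP arrays, against 6.74 and 6.64 in hCD4+ pro-B arrays, with hCD4- pro-B arrays at 6.56 and 6.39. In the plasma cell list, 2010001M09Rik, now Mzb1, a secretory pathway protein of B cells, was at least 378-fold lower in GMP.

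**Figure D5:**
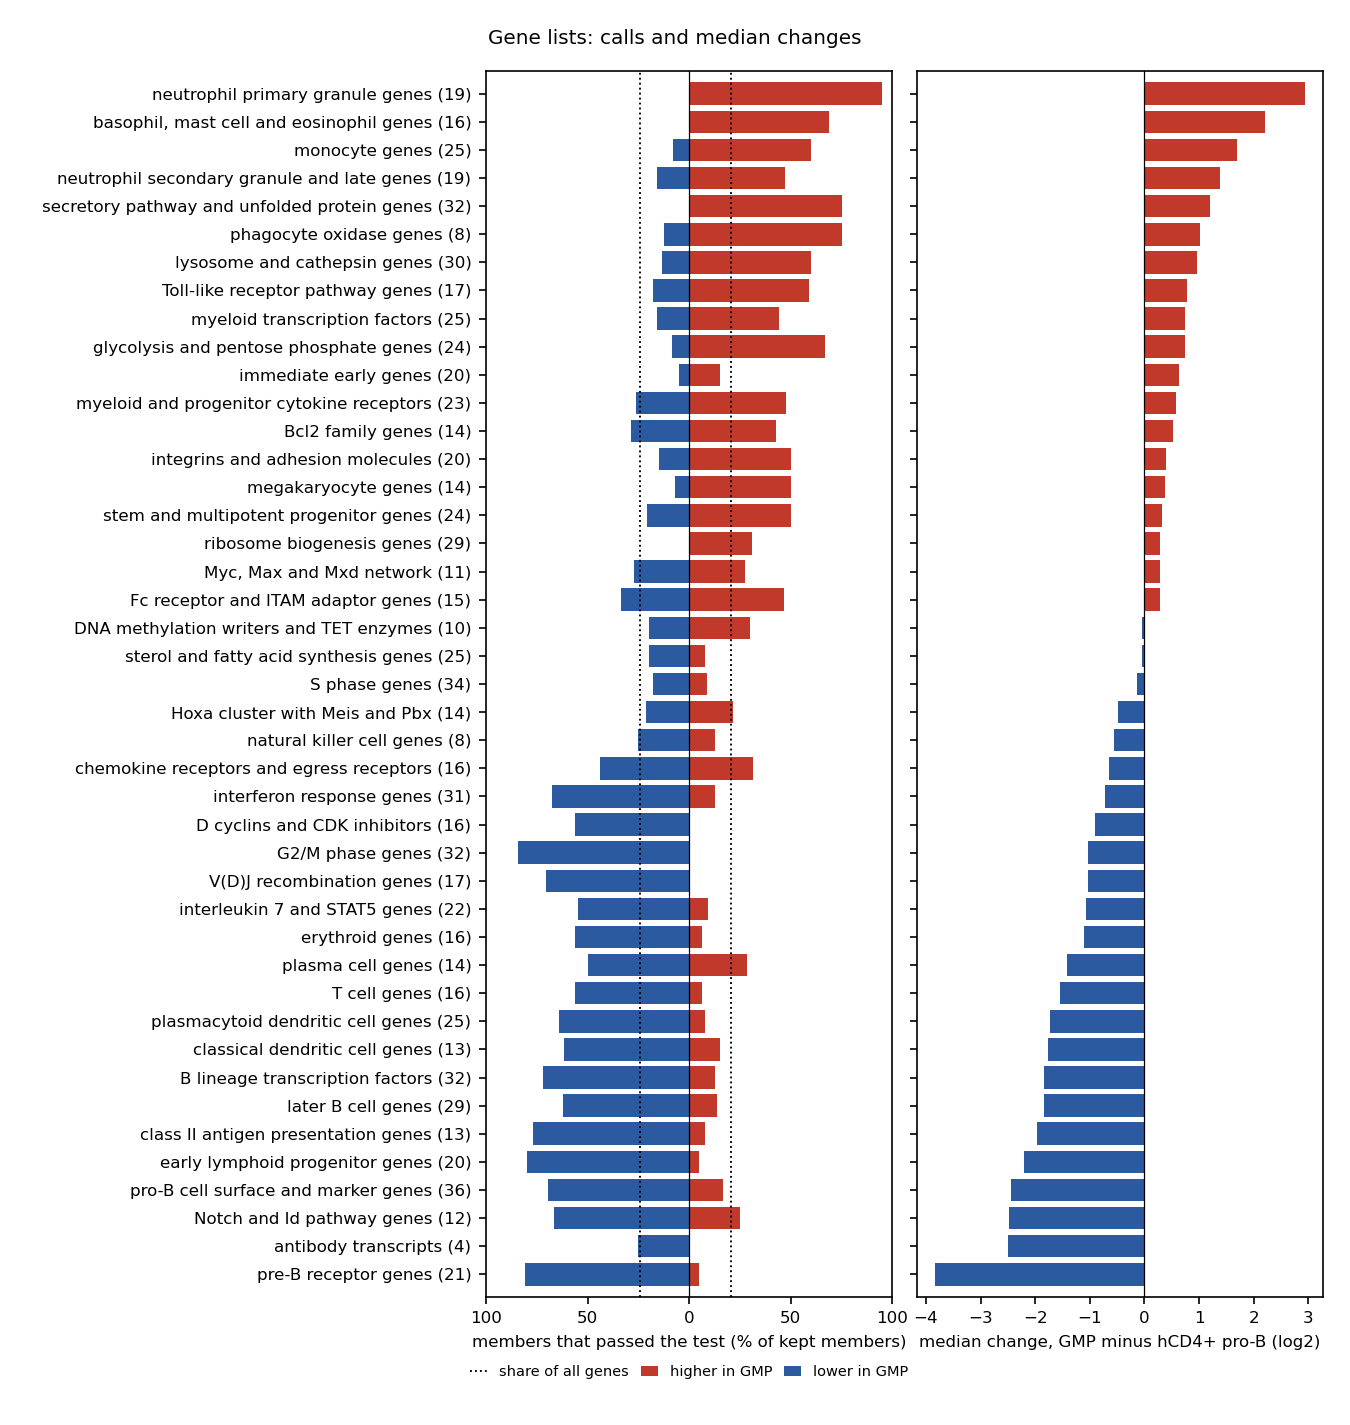
Gene lists by the share of kept members (number in brackets) that rose (red) or fell (blue) in GMP against hCD4+ pro-B arrays, with dotted lines at the share over all genes (left panel, percent), and by the median log2 difference of the kept members (right panel). Primary granule genes have the highest median (2.93) and pre-B receptor genes the lowest (-3.83); medians of the S phase, sterol, DNA methylation, Fc receptor, chemokine receptor, natural killer, plasma cell and Notch lists change sign under other settings.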

How the data were processed

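The 12 arrays have 1 colour, and per the file headers they were extracted with Agilent Feature Extraction 10.7.3.1 (protocol GE1_107_Sep09). The deposited processed signal is an intensity, background-corrected per the file headers. Its log2 was taken here and each array's 75th percentile subtracted. The authors also deposited a table of log2 values, whose normalization is not given in the sources used here, and it served as an alternative. Of 43020 non-control features, outlier spots (2469 values) were set to missing and spots averaged to 39429 probes. Probes detected over background in a whole group (both arrays of any 1 of the 6) were kept, and the brightest one stood for each of the 18556 genes. Names are those of the array annotation (mm9); 12985 matched RefSeq by accession, 1441 of them under another symbol. Tests used limma 3.58.1 in R 4.3.3 (lmFit, eBayes) on all 12 arrays in 6 groups, with 6 residual and 2.15 prior degrees of freedom, and two-sided p-values adjusted by Benjamini-Hochberg. The method was tested on simulated data. Members and lists were chosen with earlier results of these data known. Named genes are the 12 largest rises and falls above background in both groups without overlap of arrays, the 6 largest bounds per direction, a set of lineage genes always named, and up to 4 of the largest and 2 of the smallest changes of each list, with other members as examples. Alternatives were other background corrections, scalings, filters, probe summaries and models, the authors' table, and leaving out each array. Deviations of same-numbered replicates correlated by 0.068 between GMP and hCD4+ pro-B. Over all 15 pairs of groups they correlated by -0.007 to 0.254, with 14 pairs positive and 10 over 0.1. As not every pair passed 0.1 and no label ties a number to an animal or batch, the replicate number was not used as a pairing in the reported model. Promoter sequences are from RefSeq (GRCm38.p6). Figures used matplotlib 3.10.9 in Python 3.11.15. A few genes that the rule would name are not reported here.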

Additional observations from a re-analysis of the deposited data

How the results depend on the processing

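Against 8354 calls as reported, normexp with quantile normalization gave 7715 (6642 shared with the 8354), quantile 7562 (6742), cyclic loess 8053 (7209), the values the authors deposited 7315 of 18535 (6168), the mean of probes 8208 (7838), dim levels at the floor 7868 (7665) and the 4 arrays alone 7398 (6724). Array median scaling gave 9966 calls (6260 shared), 7524 higher and 2442 lower in GMP. A threshold of 0.01 left 5501 (2947 lower), and a change over 1 left 4296 (1576 higher, 2720 lower). Leaving out 1 array gave 6123 to 6822 calls (5951 to 6356 shared), 2773 to 3122 of them higher and 3309 to 3918 lower, with the lone array assumed to vary like the other groups. A replicate block gave 8741 (3931 higher, 4810 lower; 8184 shared), although whether the numbers pair samples is not settled. A slide block could not be estimated, since the arrays of each group lay on a single slide, and GMP and hCD4+ pro-B arrays on different slides.

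Of 188 named called genes, normexp with an offset of 50 moved 71 by over 1.5 times and 72 moved so in the authors' table; an offset shrinks differences of dim genes by construction. Calls lost ranged from 0 (replicate block) to 16 (without a hCD4+ pro-B array). Array median scaling turned the sign of 43 of 259 named genes, all between -0.48 and 0 before. The 10 with a call before or after were Cd93 (0.46), Ctss (0.065), Ddx21 (0.48), Dnmt3a (0.33), Fasn (0.47), Fcrl5 (0.018), Nsdhl (0.48), Plek (0.47), Rfc4 (0.48) and Tnfrsf13b (0.38). The floor turned Klrb1c (0.0016). Some named genes without a call as reported gained one, and Irf8, Gapdh, Bax and Mcl1 each did so in 1 alternative setting. Signal over background limits the 344 genes above background in GMP alone and the 1703 in hCD4+ pro-B alone, of which 175 and 1068 had bounds under 2-fold.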

Other observations

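Gene groups not described above showed smaller or mixed differences. Of 29 ribosome biogenesis genes 9 rose and none fell in GMP (0 also at an unadjusted p under 0.05), with a median difference of 0.29 that array median scaling raised. Wdr12, a factor of large subunit assembly, rose by 1.13 (SE 0.12, adjusted p = 0.000127), with GMP arrays at 3.61 and 3.64 and hCD4+ pro-B arrays at 2.46 and 2.52, and Ncl, the nucleolin gene, gave -0.02. Of 20 kept integrin and adhesion genes 10 rose and 3 fell. Vcam1 was at least 6.02-fold higher in GMP and Itga6 rose by 1.74, while Itga4 fell by 0.71 and Itgb2 by 0.87.

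Of 29 kept genes of later B cell stages 18 fell and 4 rose. Cd72, a B cell co-receptor gene, fell by 3.77 and was also lower in hCD4+ than in hCD4- pro-B arrays, by 1.48 (adjusted p = 0.000311). Ms4a1, the CD20 gene, was at least 1.96-fold lower in GMP. Of 14 kept plasma cell genes 7 fell and 4 rose, and Sdc1, the CD138 gene, fell by 3.79, while 4 of 13 antibody transcripts were kept and 1 fell. In the Myc and Max network 3 of 11 genes rose and 3 fell, among them Mxd3 (-2.41) and Mlx (1.16). The counts of the Myc and Max network, and those of the DNA methylation genes that follow, were near the shares over all genes (20.6% higher, 24.4% lower). Of 10 kept DNA methylation genes 3 rose and 2 fell: Tet2 rose by 1.31 with GMP arrays at 0.99 and 1.39 and hCD4+ pro-B arrays at -0.18 and -0.07, and Tet1 fell by 0.97 with GMP arrays at -1.04 and -0.93 and hCD4+ pro-B arrays at 0.01 and -0.03. Of 25 sterol and fatty acid synthesis genes 2 rose and 5 fell, below the shares over all genes, with Elovl6 at -1.94 and Fdps at 1.21.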
